A study of Mus musculus with 6 samples.

Results

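The circRNAs described here are catalogued molecules that share a back-splice end with another circRNA of the same table. A circRNA was taken when it had an entry in circBase, a public collection of circular RNAs, when its ends lay at least 1000 bp and under 50000 bp apart on the genome, and when its exact start or exact end was also used by another listed circRNA of the same chromosome and strand. The rule used position and catalogue entry alone and no read number, but the other circRNA had to be detected to be listed. It took 1059 of the 3869 listed circRNAs (27.4%), and 1002 other catalogued circRNAs of the same length range had both ends to themselves. The shortest member spanned 1003 bp and the longest 49935 bp, with mean levels of 47.1 and 188 CPM (CPM, a library's reads on a circRNA scaled so that all listed circRNAs sum to 1e+06). The closest catalogued end-sharing circRNAs outside the limits spanned 960 bp (58.6 CPM) and 50211 bp (83.7 CPM).

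The libraries came from stromal vascular cells of 6-week-old C57BL/6 mice, from a depot that the labels call inguinal BAT, and all 6 were depleted of ribosomal and linear RNA. The day 0 cells were preadipocytes before induction, in the phase that the labels call proliferation. The day 4 cells had spent 4 days in medium with insulin, dexamethasone and isobutylmethylxanthine, and the day 8 cells another 4 days in medium with insulin and T3, the active thyroid hormone. Each day had 2 libraries, and nothing in the labels says that they came from separate animals or cultures. The error behind each p-value is therefore that between these libraries alone and may be technical. Host genes and splice site sequences were not analysed here, and neither were marker genes of the cells. Positions are on mm9, counted from 1.

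In back-splicing, the spliceosome joins a splice donor to an acceptor that lies upstream of it, which closes the RNA between them into a ring. An acceptor that can be joined to several downstream donors, or a donor that can be joined to several upstream acceptors, gives several rings with a common end. This is called alternative back-splicing, and the rings differ in the exons they enclose. On the plus strand the lower coordinate of a circRNA is the acceptor and the higher one the donor, and on the minus strand the order is reversed. Below, an end used by 2 or more listed circRNAs is called a site, the circRNAs that use it are its partners, and the partner with the highest mean CPM over the 6 libraries is the leading partner.

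Most shared sites offered a choice between only a pair of rings, and acceptors were shared more often than donors. Of the members, 511 shared the acceptor alone, 343 shared the donor alone and 205 shared both ends. They used 767 shared sites, 426 acceptors and 341 donors. Of these sites 576 (75.1%) had 2 partners, 152 had 3, 31 had 4, 5 had 5, 2 had 6 and 1 had 7. At least 3 partners were found at 112 acceptors (26.3%) and 79 donors (23.2%). The alternative ends were usually far apart. The closest pair of partners at a site differed by a median of 8956 bp, and at 13 sites they differed by 10 bp or less, with a minimum of 3 bp.

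**Figure D1:**
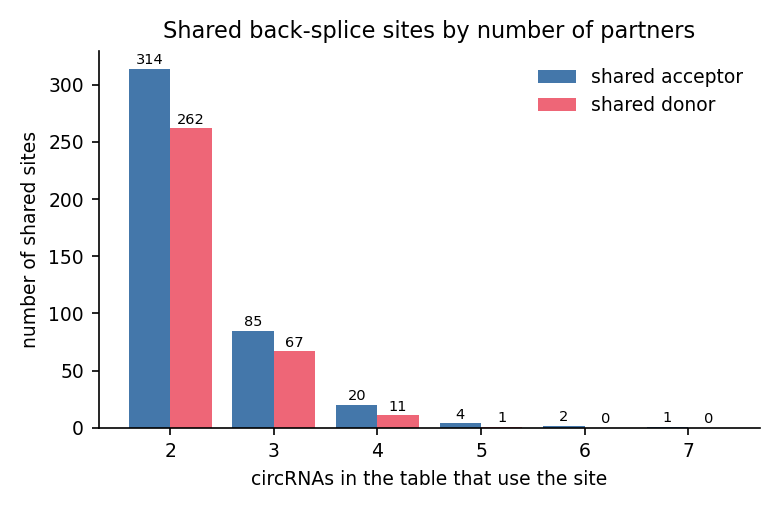
Number of shared sites (vertical axis) by the number of listed circRNAs that use the site (horizontal axis), for sites with at least 1 member. Blue bars are acceptors and red bars donors: 314 acceptors and 262 donors had 2 partners, and 85 and 67 had 3.

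Chains of shared ends joined the members and their partners into 544 families of 1583 circRNAs. The median family held 2 circRNAs, 62 families held 5 or more, and the fullest held 15. That family lay on the plus strand of chromosome 4 from 149805632 to 149909054 and combined 4 acceptors with 6 donors. Its 15 circRNAs together had 3722 ± 78.7 CPM at day 0, 6352 ± 263 CPM at day 4 and 5124 ± 479 CPM at day 8 (mean ± SD, n = 2). In 28 families a pair of acceptors and a pair of donors were joined in all 4 possible ways, which gave 60 such sets.

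Members spanned more genome than catalogued circRNAs with unshared ends, with a median of 11797 bp against 5850.5 bp. They were also more abundant, but the rule may not be independent of level, since a shared end needs another circRNA to be detected. The median member had a mean of 182 CPM and the median circRNA with unshared ends 108 CPM, and 531 members (50.1%) against 352 (35.1%) were above 0 in all 6 libraries. On the scale log2(CPM + 43.7), where 43.7 CPM is the smallest value above 0 in the table, the median member lay above the median of the other group by 0.52 and 0.53 at day 0, 0.65 and 0.60 at day 4, and 0.37 and 0.37 at day 8. The mean difference was 0.51 (SD 0.12, n = 6 libraries), in the same direction in 6 of 6 libraries. The same circRNAs were compared in every library, so the libraries are not separate evidence of a difference between the lists, and no p is given.

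Members took 42.8% and 43.3% of the CPM at day 0, 45.8% and 45.5% at day 4, and 42.8% and 43.0% at day 8. Both day 4 libraries lay above the other 4, but 2 libraries against 2 cannot reach a p below 0.333 in an exact test. The CPM values of each library were whole multiples of a single step, with deviations of at most 2.52e-07 of it, and that step was taken as 1 read. No value was 1 step, so an entry of 0 may stand for 1 read. The libraries held 40384 to 45733 such inferred reads on listed circRNAs, and 17463 to 20963 of them fell on members.

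Some partners were listed at 0 in a single library while the other library of the same day had many reads. Among members, 75 (7.08%) were at 0 in one library and at 10 or more reads in the other library of the day, against 246 of all listed circRNAs (6.36%). By library these were 23 and 13 members at day 0, 15 and 13 at day 4, and 3 and 11 at day 8. For 2 members the other library had 50 or more reads. The member mmu_circ_0014993 had 137 and 0 reads at day 0, 130 and 153 at day 4, and 53 and 79 at day 8. The member mmu_circ_0001798 had 57 and 30 reads at day 0, 51 and 0 at day 4, and 55 and 48 at day 8. What lies behind these entries was not tested. They touched 50 of the 367 member sites with at least 10 reads in every library.

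Most sites with at least 10 reads in every library favoured the same partner at every stage of differentiation. Among the 216 member sites with at least 20 reads in every library, the same partner had the most CPM in all 6 libraries at 172 (79.6%). With at least 50 reads the number was 78 of 85 (91.8%), and with at least 10 reads 258 of 367 (70.3%). The leading partner took a median of 81.6% of a site's CPM over the 216 sites. At 70 sites it took over 90%, and at 38 sites under 60%. Acceptors (125 sites, median 81.2%) and donors (91 sites, median 82.6%) were close in this measure.

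The mean share of the leading partner was 75.9% and 76.9% at day 0, 77.9% and 78.0% at day 4, and 78.7% and 77.6% at day 8. The day 0 libraries were the lowest, and the day 4 and day 8 libraries overlapped. The effective number of partners, the exponential of the Shannon entropy of the shares, was 1.77 and 1.76 at day 0, 1.72 and 1.73 at day 4, and 1.71 and 1.74 at day 8. The difference of 1.77 percentage points in leading share between days 8 and 0 was 0.277 points when sites with 10 reads were taken in, and no test was made.

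**Figure D2:**
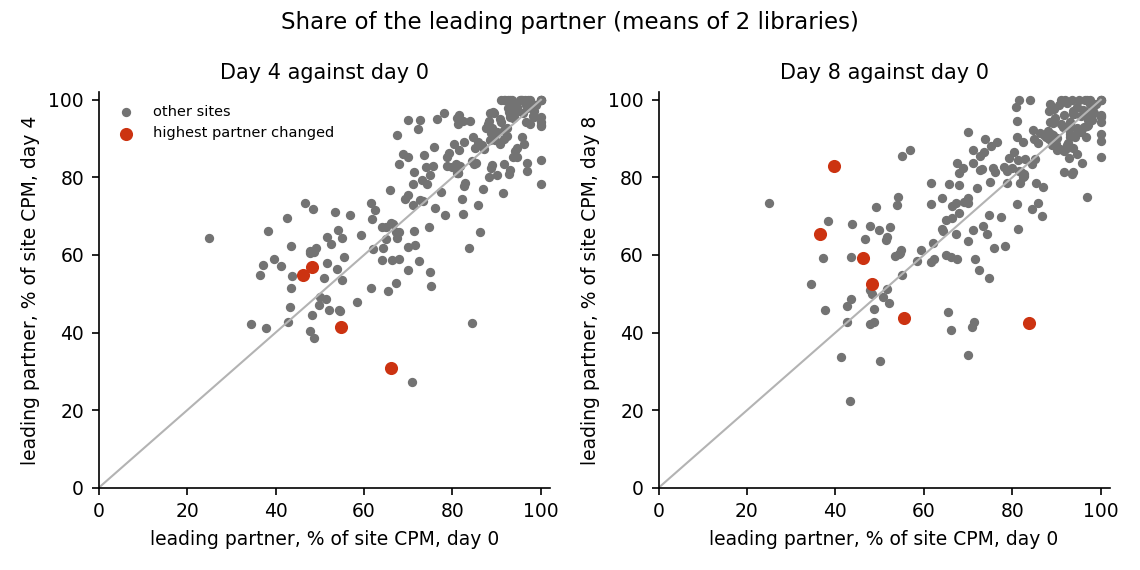
Share of a site's CPM taken by its leading partner at day 0 (horizontal axis, percent) against day 4 (left) and day 8 (right), as means of 2 libraries, for 216 sites with at least 20 reads in every library. Most sites lie along the grey line of equal shares. Red points mark the 4 (left) and 6 (right) sites where the highest partner was a different one in both libraries of the later day.

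Partner shares varied within a day nearly as much as between days. The mean absolute difference in leading share over the 216 sites was 8.34 percentage points between the libraries of day 0, 8.86 points for day 4 and 7.49 points for day 8. Between libraries of different days it was 8.86 to 11.4 points for days 0 and 4, at least 9.66 for days 0 and 8, and 8.62 to 10.5 for days 4 and 8. The lowest pairs of days 4 and 8 lay below the value within day 4. So, narrowly, did the lowest pair of days 0 and 4 (8.858 against 8.864 points).

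**Figure D3:**
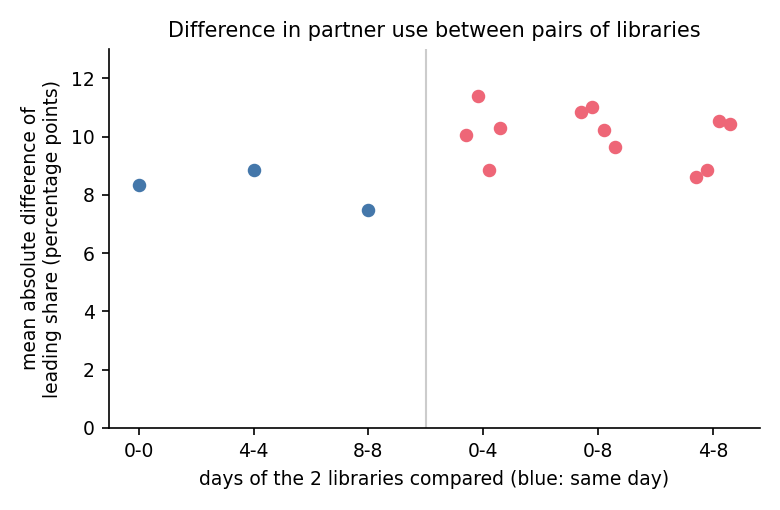
Mean absolute difference in leading share (percentage points, vertical axis) between 2 libraries, by the days they came from (horizontal axis), over 216 sites. Blue points are the 3 pairs from the same day, at 7.49 to 8.86 points, and red points the 12 pairs from different days, at 8.62 to 11.4 points.

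The shorter ring was not the regular winner. It led 298 of the 576 sites with 2 partners (51.7%), and 65 of the 116 that had at least 20 reads in every library (56.0%). Catalogued rings led more often than uncatalogued ones. At 342 sites at least 1 partner had no circBase identifier, and a catalogued partner led 279 of them (81.6%), a share that the choice of catalogued members favours.

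The most abundant sites show how differently a choice can be split. The donor at position 128200913 on the plus strand of chromosome 7 had the highest level. It was joined to an acceptor at 128191352 in mmu_circ_0001624, the most abundant member, which had 499 and 433 reads at day 0, 457 and 409 at day 4, and 403 and 461 at day 8. Its other partner, mmu_circ_0001625, had 111, 97, 75, 103, 97 and 140 reads in the same order. The first ring was above the second in every library and took 81.8% ± 0.074, 82.9% ± 4.26 and 78.7% ± 2.75 of the site at days 0, 4 and 8 (SD, n = 2). The donor at 61939020 on the plus strand of chromosome 15 lay at the other extreme. There the member mmu_circ_0005721, a ring of 5121 bp, took 1.03% ± 0.385, 1.26% ± 0.669 and 1.04% ± 0.765, and a ring of 318 bp, mmu_circ_0000604, took the rest.

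An even split was seen at the acceptor at 96511918 on the minus strand of chromosome 9. The ring of 19550 bp, mmu_circ_0001829, had 219 and 224 reads at day 0, 261 and 268 at day 4, and 230 and 228 at day 8. The ring of 8787 bp, mmu_circ_0001830, had 228 and 225, 215 and 155, and 189 and 190. The shorter ring was ahead by a few reads in both day 0 libraries and the longer ring was ahead in the other 4. The longer ring took 48.2% ± 0.844, 57.0% ± 6.51 and 52.7% ± 1.18 of the site. The log2 ratio of leading to other partners differed by 0.51 (SE 0.50) for day 4 against day 0, with an adjusted p of 0.653 in limma.

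The acceptor at 81039485 on the plus strand of chromosome 8 had the most partners, 7. The only catalogued one was mmu_circ_0014993, whose entry of 0 in a day 0 library is given above, and 6 rings of 63172 to 191363 bp had no circBase identifier. The ring of 63172 bp led with 104, 122, 280, 226, 141 and 152 reads. It was above the member in 5 of 6 libraries. The acceptor at 139883235 on the minus strand of chromosome 2 had 6 partners, all catalogued. There mmu_circ_0001077 led in every library with 90, 103, 147, 106, 165 and 171 reads. The next ring, mmu_circ_0001076, took 10.8% ± 0.303, 30.3% ± 6.72 and 16.6% ± 1.03 of the site at days 0, 4 and 8, and its day 4 shares lay above those of both other days.

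The level of one acceptor, at 119007533 on the minus strand of chromosome 6, was lower at the later days. It served 5 catalogued rings. Together they had 660 and 555 reads at day 0, 254 and 331 at day 4, and 214 and 170 at day 8. The leading member, mmu_circ_0001511, had 389 and 362, 175 and 179, and 137 and 106 reads, and its days did not overlap. Its log2 change was -1.05 for day 4 and -1.50 for day 8 against day 0 (adjusted p = 0.0230 and 0.00384, limma). Its share of the acceptor was 62.1% ± 4.44, 61.5% ± 10.5 and 63.2% ± 1.18, with a wide gap between the day 4 libraries. Its donor, at 119002619, was shared with mmu_circ_0012998, which had 32 and 30, 10 and 18, and 0 and 2 reads and was lower at day 8 than at day 0 by a log2 value of -3.56 (SE 0.55, adjusted p = 0.00918). At that donor mmu_circ_0001511 had 92.4% ± 0.0368, 92.7% ± 2.64 and 99.1% ± 1.31 of the site. Its ratio there differed by 2.02 (SE 0.63, adjusted p = 0.283, limma) between day 8 and day 0.

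Whether the choice of partner changed over the days was tested on the log2 ratio of leading to other partners, with limma, at the 411 sites of the table with at least 10 reads in each library. Of these, 367 had a member. No site passed an adjusted p of 0.05 in any of the 3 comparisons (0% of all sites called in each). For day 4 against day 0 the unadjusted p was under 0.05 at 55 sites, 48 of them with a member, and the lowest adjusted p was 0.132. Between days 8 and 0 the numbers were 58 and 53 with a lowest adjusted p of 0.213. Between days 8 and 4 they were 45 and 43 with 0.199. The comparisons share libraries and are given side by side.

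The ratios of the 2 libraries of one day lay wholly on one side of those of the other day at 178 member sites for days 0 and 4, beside 48.2% of all sites tested. The numbers were 172 for days 0 and 8, beside 47.9%, and 156 for days 4 and 8, beside 41.8%. The F test of limma's diffSplice asks, once per site, whether the partners of the site changed alike. It called 8 member sites between days 0 and 4 (2.43% of all sites), 1 between days 0 and 8 (0.243%) and 6 between days 4 and 8 (1.46%). It pools the spread of a site's partners as if they were independent, though they come from the same 6 libraries. At nearly all of these called sites a partner was at 0 in both libraries of a day compared. A circRNA is listed only with a day on which both its libraries exceed 0, so these calls are not independent of that selection. With a pseudocount of 1 CPM in place of 43.7, the ratio test called 18, 27 and 22 member sites (4.87%, 7.3% and 5.6% of all sites), so the absence of calls depends on how entries near 0 are weighted. Without the sites that held a 0 beside 10 or more reads, 358 sites were tested and 0 were called, with 56, 54 and 45 at an unadjusted p under 0.05.

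The largest change with no overlap for day 4 against day 0 that was also called by diffSplice was at the acceptor at 83846131 on the plus strand of chromosome 9. Its member mmu_circ_0015952, a ring of 39299 bp, had 19 and 23 reads at day 0, 15 and 7 at day 4, and 40 and 24 at day 8. A ring of 60096 bp, mmu_circ_0015953, was at 0 in both day 0 libraries and had 17 and 12 reads at day 4 and 25 and 15 at day 8. The shorter ring led at day 0 and day 8 and the longer one in both day 4 libraries. The share of the shorter ring was 93.2% ± 9.64, 41.9% ± 7.09 and 58.0% ± 1.19. The log2 ratio differed by -3.34 (SE 0.68) between day 4 and day 0, with an adjusted p of 0.132 in the ratio test and 0.00751 in diffSplice. Since mmu_circ_0015953 is listed only through days 4 and 8, neither p-value is independent of the selection of the table by detection.

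The 4 other named sites with a larger ratio change and no overlap each held entries of 0. At the donor at 66165390 on the plus strand of chromosome 17, the ratio differed by 4.29 (SE 1.10, adjusted p = 0.270, limma) for day 8 against day 4. The leading ring there, uncatalogued and of 2593 bp, had 6 and 16 reads at day 0, was at 0 in both day 4 libraries, and had 10 and 12 reads at day 8. Its partner mmu_circ_0006932 had 7 and 6, 6 and 15, and 10 and 0 reads. At the donor at 81055057 on chromosome 8, where mmu_circ_0014993 meets mmu_circ_0014994, the ratio differed by 4.16 (SE 1.76, adjusted p = 0.360, limma) for day 4 against day 0, and the first ring had the day 0 entries of 137 and 0. At the donor at 107047090 on the minus strand of chromosome 5, mmu_circ_0001378 took the whole site at day 0 with 26 and 15 reads and 43.0% ± 15.3 at day 8 with 7 and 9 reads. Its partners mmu_circ_0001380 and mmu_circ_0001379 were at 0 in both day 0 libraries and had 4 and 13 and 2 and 6 reads at day 8. The ratio differed by -3.94 (SE 1.21) with an adjusted p of 0.283. At the donor at 22095687 on the plus strand of chromosome 6, mmu_circ_0001447 had 48 and 17 reads at day 4 and 100 and 107 at day 8. Its uncatalogued partner had 4 and 7 reads at day 4 and was at 0 in both day 8 libraries. That ratio differed by 3.78 (SE 0.74) with an adjusted p of 0.199 in the ratio test and 0.0264 in diffSplice. The uncatalogued ring had only 2 and 0 reads before induction, and it owes its listing to day 4 alone. Neither p-value for this site is therefore free of the selection by detection.

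Among the other sites that diffSplice called, chosen for mention after their values were seen, was the donor at 88425856 on the plus strand of chromosome 8. It was called for day 4 and for day 8 against day 0. Its member mmu_circ_0001707 had 39 and 26 reads at day 0, 60 and 72 at day 4, and 58 and 72 at day 8. An uncatalogued ring of 58954 bp had 7 and 5 reads at day 0 and was at 0 in the 4 later libraries. That ring is listed only through day 0, so the calls of this site are not independent of the selection of the table by detection. The third partner, of 53284 bp, had 9 and 8, 13 and 8, and 12 and 16 reads. The member's share was 68.8% ± 3.00, 86.1% ± 5.52 and 82.3% ± 0.735, and its ratio differed by 1.43 (SE 0.55) for day 4 and 1.03 (SE 0.55) for day 8, neither past the threshold of the ratio test.

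At 21 of the 367 sites the highest partner was one ring in both libraries of a day and another ring in both libraries of another day. These were 10 sites between days 0 and 4, 11 between days 0 and 8 and 7 between days 4 and 8. The count was made at member sites only, so no share over all tested sites stands beside it. A lead of any size counted, such as 225 against 224 reads in a day 0 library at the acceptor at 96511918. Within a day, the libraries differed in their highest partner at 43, 53 and 42 sites for days 0, 4 and 8. The acceptor at 83846131, described above, was among the 21 sites with an exchange. Another was the acceptor at 94605519 on the plus strand of chromosome 16, used by 3 members. The ring of 9263 bp, mmu_circ_0000713, had 101 and 93 reads at day 0, 34 and 32 at day 4, and 29 and 19 at day 8. The ring of 19457 bp, mmu_circ_0000714, had 38 and 28, 76 and 49, and 41 and 18 reads.

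At that acceptor the shorter of these rings led at day 0 in both libraries and the longer one at day 4 in both, while the day 8 libraries were split. The share of mmu_circ_0000713 was 66.2% ± 0.346, 30.9% ± 2.95 and 40.7% ± 3.55, and that of mmu_circ_0000714 was 22.4% ± 3.64, 57.5% ± 9.82 and 47.4% ± 9.22. The third ring, mmu_circ_0006477 of 1512 bp, took 11.4% ± 3.98, 11.6% ± 6.87 and 11.9% ± 5.67. The ratio of the leading ring to the others differed by -2.06 (SE 0.49) for day 4 against day 0, with an unadjusted p of 0.00460 and an adjusted p of 0.146 (limma). In diffSplice the adjusted p was 0.152.

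Among exchanges at sites with 20 or more reads in every library, the share shifted by more than at that acceptor at 2 sites on the plus strand of chromosome 9, which had fewer reads and were chosen for mention after their values were seen. At the acceptor at 79935237, the ring of 16335 bp, mmu_circ_0001819, had 8 and 11, 23 and 23, and 21 and 20 reads. The ring of 6212 bp, mmu_circ_0001818, had 12 and 17, 27 and 9, and 11 and 0. The longer ring took 39.6% ± 0.505, 58.9% ± 18.3 and 82.8% ± 24.3 of the site, with the day 8 value resting in part on the entry of 0 (ratio difference 2.72 for day 8 against day 0, SE 0.97, adjusted p = 0.296, limma). At the donor at 72441167, the ring of 1610 bp, mmu_circ_0001804, had 36 and 41, 22 and 15, and 12 and 11 reads. Its uncatalogued partner of 16322 bp had 7 and 8, 14 and 9, and 15 and 16. The shorter ring took 83.7% ± 0.0336, 61.8% ± 0.982 and 42.6% ± 2.62, and the days did not overlap. Its ratio differed by -2.49 (SE 0.48) between day 8 and day 0, with an adjusted p of 0.213.

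At the acceptor at 43113677 on the plus strand of chromosome 10, the ring of 19677 bp, mmu_circ_0000164, had 11 and 11, 19 and 17, and 25 and 37 reads. The ring of 1822 bp, mmu_circ_0000163, had 25 and 15, 20 and 11, and 17 and 15. The longer ring had 36.4% ± 8.31, 54.7% ± 8.48 and 65.3% ± 8.22 of the site at days 0, 4 and 8, and the day 8 and day 0 libraries did not overlap (ratio difference 1.59, SE 0.57, adjusted p = 0.305, limma). At the acceptor at 120862863 on the minus strand of chromosome 4, the ring of 19641 bp, mmu_circ_0001255, had 46.2% ± 4.19, 54.8% ± 4.79 and 59.3% ± 0.975. At the acceptor at 192723450 on the minus strand of chromosome 1, mmu_circ_0000132 had 48.6% ± 6.68, 60.7% ± 4.31 and 46.0% ± 0.358. At the donor at 23485306 on the minus strand of chromosome 5, mmu_circ_0012451 had 54.8% ± 2.63, 41.6% ± 10.6 and 61.3% ± 1.09. None of these passed the ratio test.

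**Figure D4:**
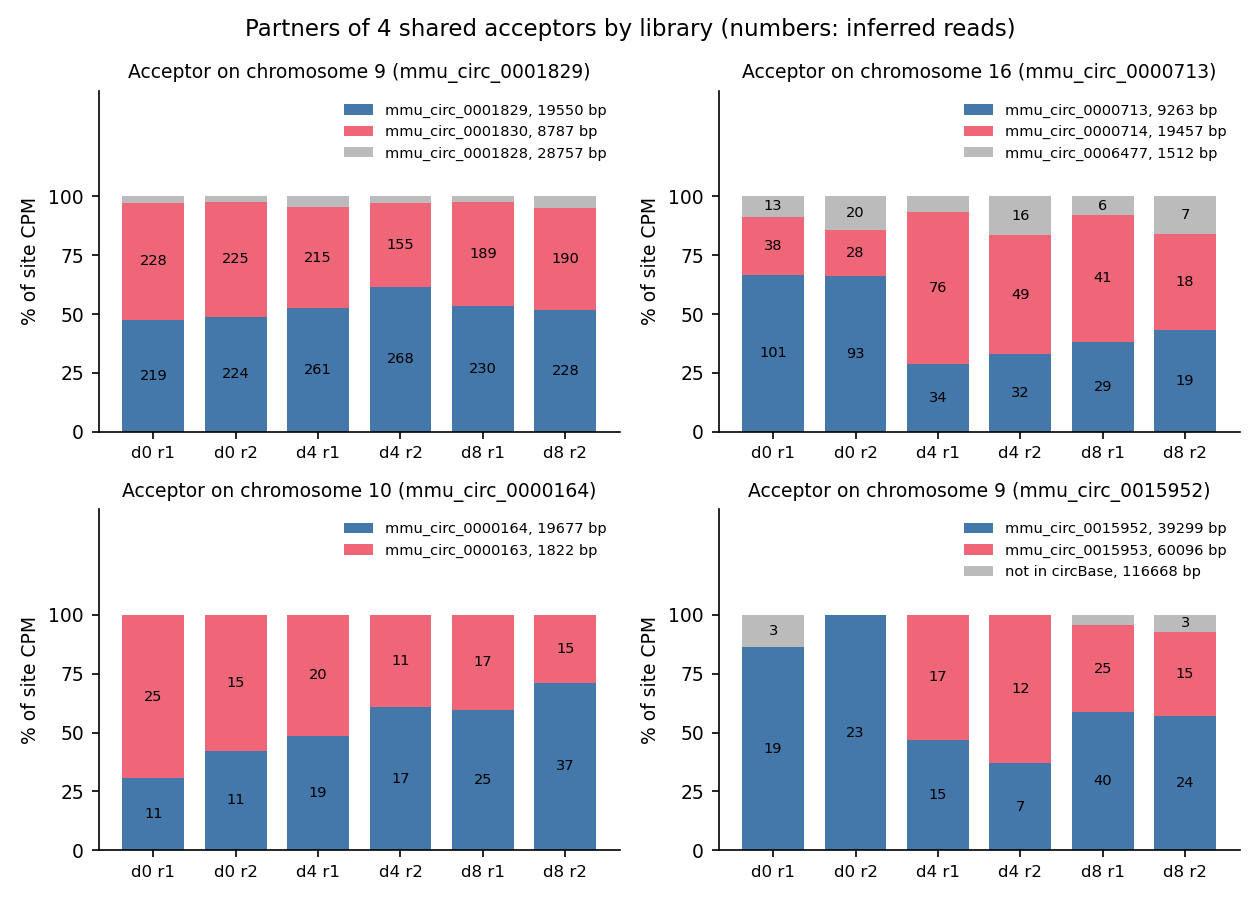
Share of CPM (percent, vertical axis) taken by each partner of 4 shared acceptors in the 6 libraries (horizontal axis, d for day and r for replicate). Colours are partners, with their span in bp, and the numbers in the bars are inferred reads (omitted in segments under 7%). The ring mmu_circ_0000713 has 66.2% of its site at day 0 and 30.9% at day 4, and mmu_circ_0001829 has 48.2% and 57.0% of its own.

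The level of each member was compared between days in a limma fit of all 3869 circRNAs. For day 4 against day 0, 51 members were called, 29 higher and 22 lower. This is 4.82% of members beside 8.17% of the table, where 3.95% were higher and 4.21% lower. Between days 8 and 0, 73 members were called, 45 higher and 28 lower. This is 6.89% beside 12.4% of the table, where 7.52% were higher and 4.88% lower. Between days 8 and 4, 45 members were called, 22 higher and 23 lower. This is 4.25% beside 9.49% of the table, where 6.05% were higher and 3.44% lower. Of the circRNAs with unshared ends, 51, 84 and 69 of 1002 were called. Of the called members 31, 39 and 30 were at 0 in both libraries of one of the days. A circRNA is listed only with a day on which both its libraries exceed 0, so these calls are not independent of that selection. When 10 or more reads were required in 2 or more libraries, 572 members and 1368 circRNAs in all were tested. Then 17 members were called between days 0 and 4 (beside 3.65% of all tested), 30 between days 0 and 8 (6.51%) and 5 between days 4 and 8 (1.02%).

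These calls were not stable to the loss of a library. Leaving out any of the 6 libraries left 0 of the 51 members called for day 4 against day 0, although 143 to 201 members had an unadjusted p under 0.05. For day 8 against day 0, 0 of the 73 stayed called without day 0 replicate 2 or either day 8 library, and 4 without day 0 replicate 1. For day 8 against day 4, 0 of the 45 stayed called without any one library of those days.

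At most sites used by a called member, no other partner was called. In the table as a whole 8.17%, 12.4% and 9.49% of circRNAs were called, so a partner without a call is common there too, and nothing particular to members is read from these counts. Called members used 58 shared sites for day 4 against day 0, and at 52 of them no other partner was called. For day 8 against day 0 this held at 65 of 87 sites, and for day 8 against day 4 at 44 of 53. All partners were called in the same direction at 1, 12 and 3 sites, and partners were called in both directions at 2 sites in each comparison. A partner that missed the threshold is not shown to have stayed the same.

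The 5 most abundant members, mmu_circ_0001624, mmu_circ_0000681, mmu_circ_0012878, mmu_circ_0000495 and mmu_circ_0001829, were not called in any comparison. The member called in all 3 comparisons with the most reads among those named was mmu_circ_0001822 on the plus strand of chromosome 9, from 83882383 to 83906226. It had 37 and 30 reads at day 0, 112 and 99 at day 4, and 243 and 223 at day 8, and the days did not overlap. It rose by 1.63 (SE 0.17, adjusted p = 0.00308) from day 0 to day 4, by 1.23 (SE 0.17, adjusted p = 0.00692) from day 4 to day 8 and by 2.86 (SE 0.17, adjusted p = 0.000925) in all, on the log2 scale in limma. It shares its donor with mmu_circ_0015953, described above, which rose from 0 in both day 0 libraries (adjusted p = 0.0172 at day 4 and 0.00676 at day 8, limma). That ring is listed only through days 4 and 8, so its p-values are not independent of the selection of the table by detection. The other 3 partners of mmu_circ_0001822 had at most 12 reads in any library.

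Other members rose late. The ring mmu_circ_0005910 on chromosome 15, from 84001512 to 84016511, had 44 and 50 reads at day 8 and none listed in the 4 earlier libraries. It was at least 15.9-fold higher at day 8 than at day 0, taking 3 reads per library as the floor (adjusted p = 0.00486). Its partner at the shared acceptor, mmu_circ_0005909, was at 0 in the same 4 libraries and had 8 and 2 reads at day 8 (adjusted p = 0.0569). Both rings are listed only through day 8, so their p-values are not independent of the selection of the table by detection. The ring mmu_circ_0015392 on chromosome 9 had 0 and 0, 10 and 3, and 30 and 44 reads, at least 12.5-fold higher at day 8 than at day 0 (adjusted p = 0.00589). The ring mmu_circ_0000875, of 41346 bp, had 5 and 6, 5 and 6, and 43 and 64 reads, and rose by 3.00 (SE 0.36, adjusted p = 0.00345) from day 0 to day 8 in limma.

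Some members were higher at day 4 than at day 0. The ring mmu_circ_0000937 on chromosome 19 had 3 and 0 reads at day 0, 37 and 39 at day 4, and 13 and 23 at day 8. Its log2 change was 3.74 (SE 0.55, adjusted p = 0.0115) for day 4 against day 0. Its partner at the shared acceptor, mmu_circ_0000938, had 3 and 5, 17 and 13, and 5 and 4 reads (adjusted p = 0.142). The ring mmu_circ_0001853 on chromosome 9 had 5 and 2, 34 and 28, and 21 and 16 reads, a log2 change of 2.68 (SE 0.39, adjusted p = 0.0113). The rings mmu_circ_0004144 and mmu_circ_0000942 were highest at day 4 and fell to day 8, with log2 changes of -1.46 (adjusted p = 0.0235) and -1.45 (adjusted p = 0.0248). Neither fall was called when 10 or more reads were required in 2 or more libraries (adjusted p = 0.0995 and 0.0910, limma).

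A dip at day 4 was seen for mmu_circ_0007394, which had 59 and 66 reads at day 0, 7 and 18 at day 4, and 48 and 54 at day 8. It fell by 2.25 (SE 0.42, adjusted p = 0.0290) and then rose by 2.08 (SE 0.42, adjusted p = 0.0343) on the log2 scale in limma. When 10 or more reads were required in 2 or more libraries, the fall stayed called (adjusted p = 0.0426) and the rise did not (adjusted p = 0.0930, limma). The partner mmu_circ_0007395 at the same acceptor had 13 and 10, 14 and 17, and 11 and 27 reads and was not called (adjusted p = 0.655 and 0.829). In the day 4 libraries the first ring was above the second in one library and below it in the other.

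Losses were seen at the acceptor at 8116539 on the minus strand of chromosome 4. Its partners mmu_circ_0011791, of 6140 bp, and mmu_circ_0011786, of 19797 bp, had 17 and 16 and 14 and 5 reads at day 0 and were both at 0 in both day 8 libraries. The first was at least 5.41-fold and the second at least 3.09-fold lower at day 8 (adjusted p = 0.0402 and 0.0153, limma). Both are listed only through day 0, the only day with both libraries above 0. Their p-values are therefore not independent of the selection of the table by detection. With 10 or more reads required in 2 or more libraries, the first stayed called (adjusted p = 0.0355, limma) and the second was not tested. The ring mmu_circ_0009406 on chromosome 2 had 83 and 76 reads at day 0, 24 and 21 at day 4, and 19 and 41 at day 8. It fell by 1.72 (SE 0.35, adjusted p = 0.0404) from day 0 to day 4. Under the same requirement on reads this fall was not called (adjusted p = 0.0570, limma).

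**Figure D5:**
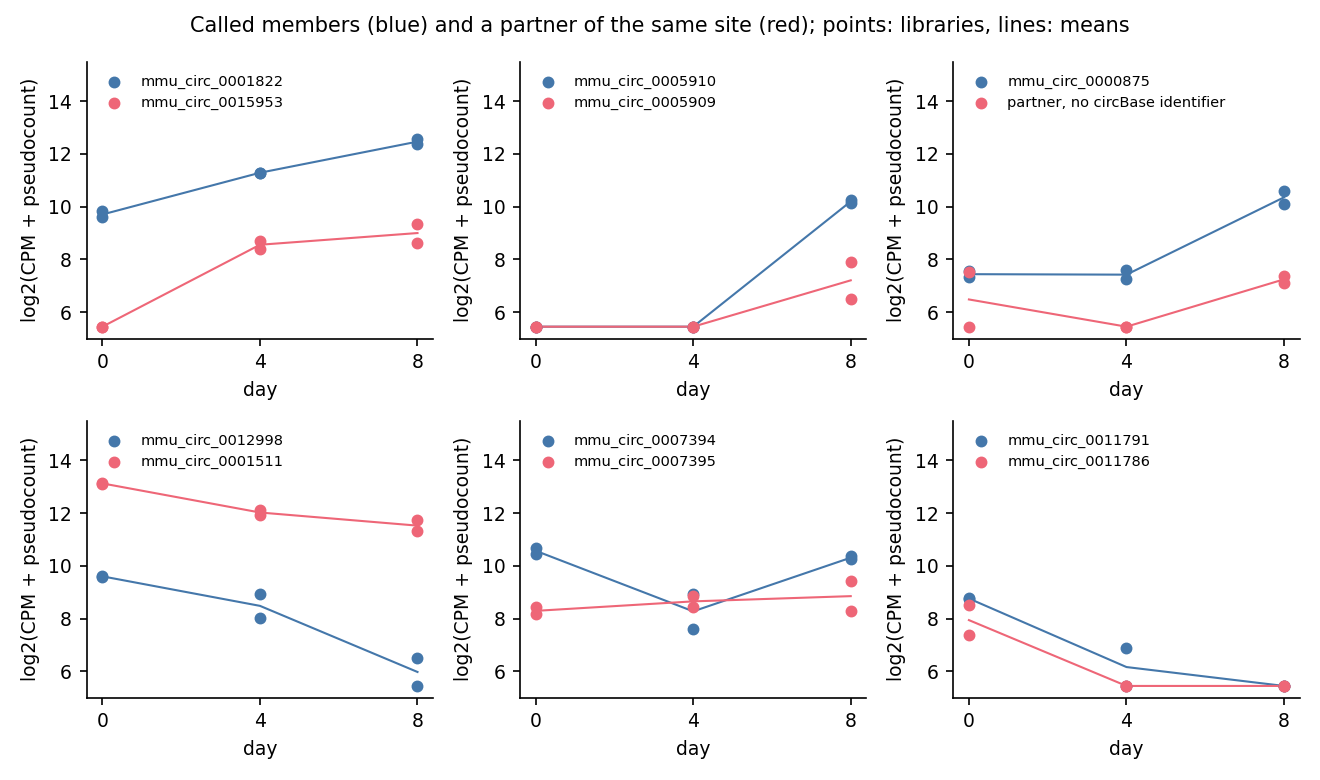
Level on the scale log2(CPM + 43.7) (vertical axis) by day (horizontal axis) for 6 called members (blue) and a partner of the same site (red); points are libraries and lines join the means of 2. In the panel of mmu_circ_0007394 the member dips at day 4 and its partner does not, and in the panel of mmu_circ_0011791 both rings reach the lowest value by day 8.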

How the data were processed

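The deposited table gives a CPM value per circRNA and library, normalized by the authors to reads on listed circRNAs, with each column summing to 1e+06. Per the submitters' processing notes, FastQC 0.11.9, HISAT2 2.2.0 and the mm9 build were used, with the circRNA caller not given in the sources used here. No circRNA is listed without a day on which its libraries both exceed 0, so the table is selected by detection. Reads were inferred from the step of the values; since none was 1 read, no count model was used. One fit over all days used limma 3.58.1 (mean-variance trend) in R 4.3.3 on log2(CPM + 43.7) after scaling by trimmed mean of M values; fold changes on this scale understate changes of low circRNAs. Site ratios were fitted unscaled, and diffSplice was run without the mean-variance trend. Adjusted p-values are Benjamini-Hochberg values over all circRNAs or sites tested, and called means below 0.05. Sites were named by level, number of partners, largest non-overlapping change and exchange of the highest partner; circRNAs by level and largest called change with no overlap. The members, lists and tests were chosen with earlier results of these data known. A planned sign-flip test of levels between members and circRNAs with unshared ends is not reported, because the same circRNAs are compared in each library. No pairing of the samples by replicate number was seen (correlations of their deviations -0.0136, -0.0067 and -0.0071). The labels do not say whether there was any, and few reads per circRNA could hide it. The alternatives tried were pseudocount, scaling, filters, partners, model, replicate block and leaving out each library.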

Additional observations from a re-analysis of the deposited data

How the results depend on the processing

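The ratio test called 0 sites in each comparison with the replicate block, and with it 304, 453 and 351 circRNAs (47, 66 and 43 members) for day 4 against day 0, day 8 against day 0 and day 8 against day 4, so the block moved no count by over 1.5 times. In the same order, a pseudocount of 1 gave 20, 30 and 23 called sites (18, 27 and 22 with a member), a pseudocount of 0.1 gave 22, 33 and 24 (20, 30 and 23), and diffSplice gave 10, 1 and 6 (8, 1 and 6). With only catalogued partners, 1 site, with a member, was called for day 4 against day 0. Leaving out single libraries gave 0 to 1, 0 to 1 and 0 to 0 sites, and the 1 site in each case appeared without day 0 replicate 1. Called circRNAs numbered 316, 480 and 367, and requiring 10 or more reads in 2 or more libraries left 50, 89 and 14 (members 17, 30 and 5). With the libraries of days 0 and 4 alone, 36 (5 members) were called for day 4 against day 0. Leaving out single libraries gave 0 to 0, 0 to 501 and 0 to 360 (members 0 to 0, 0 to 84 and 0 to 37), where a day left with 1 library was assumed to vary like the others. The cause of these shifts was not tested. The level difference between members and circRNAs with unshared ends was 0.48 to 0.54 without single libraries. From day 0 to day 8 the leading share differed by 1.77 points, and by 0.277 with sites of 10 reads. The share of the shortest ring differed by 0.561 points, by 0.234 with 50 reads, by -0.440 with 10 reads and by 0.895 with catalogued partners. The effective number of partners differed by -0.0408, and by -0.0022 with 10 reads. The settings that leave out entries of 0 beside 10 or more reads, or take the trend on the level of the site, were chosen after seeing the data. Without such circRNAs 63, 79 and 52 members were called. Few reads per partner limit what can be seen of a minor ring.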
